A study of Mus musculus with 4 samples.

Results

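Immunoglobulin gene segments were measured in sorted naive CD4+ T cells that lacked TACI and in wild-type (WT) cells. The members were all probe sets (groups of probes summarised as 1 value) whose platform annotation held a symbol of an immunoglobulin heavy chain segment (Ighv, Ighd, Ighj, Ighm, Ighg, Igha, Ighe), kappa segment (Igkv, Igkj, Igkc) or lambda segment (Iglv, Iglj, Iglc). This gave 34 of the 41345 probe sets on the array. Of these, 14 carried heavy chain symbols, 18 kappa symbols and 1 a lambda symbol, and 1 carried both heavy and kappa symbols. TACI, the product of Tnfrsf13b, is a receptor for the cytokines BAFF and APRIL best known from B cells and plasma cells.

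The TACI-/- group and the WT group each held 2 arrays (Affymetrix Mouse Gene 2.0 ST), which the labels call biological replicates, from C57BL/6 mice. Spleen and lymph node cells were pooled, and CD4+ cells with high CD62L, low CD44 and no CD25 were sorted. The design of the TACI-/- allele, the age of the mice and the number of mice in a pool are not stated in the sources used here, so the mice behind an array cannot be counted. The p-values therefore set a genotype difference against the spread between arrays of the same genotype. The fit takes that spread partly from the other probe sets. In bulk RNA, fewer cells of a type and less RNA per cell cannot be told apart.

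A B cell builds its antibody gene by joining a V, a D and a J segment at the heavy chain locus, and a V and a J segment at the kappa or lambda locus. The heavy chain is made first with the mu constant region, encoded by Ighm, which gives IgM, and class switching can replace mu by another constant region such as gamma 3, encoded by Ighg3. T cells join the segments of their own receptor genes instead, but T lineage cells are also known to transcribe the unrearranged mu region. V segments fall into families of related sequence, and the number before the hyphen in a symbol gives the family. Probes can match several related segments, so the value of any single one is uncertain.

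The 34 probe sets held 23 distinct symbols, all of which are in the RefSeq gene table of GRCm38.p6. There 20 are V segments, 2 are constant regions (Ighm and Ighg3) and 1 is a J segment (Igkj1). The heavy chain locus lies on chromosome 12 (6 symbols), the kappa locus on chromosome 6 (16 symbols) and the lambda locus on chromosome 16 (1 symbol). The same table lists 395 genes that fit the symbol rule, so most segments were not analysed here by name. Several symbols stood on 5 of the probe sets. Ighm stood on 10 probe sets, alone on 7 of them, and Igkv5-43 and Ighg3 stood on 3 each. No 2 members had identical values on all 4 arrays.

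Levels are log2 values, and a percentile gives a value's place among all 41345 probe sets of its array. Probe sets differ in how well they bind, so a level does not rank one segment's RNA against another's. A low-value filter was set on each array at the 40th percentile of the probe sets that carry a single symbol, at 3.74 and 3.77 log2 units on the TACI-/- arrays and at 3.74 on both WT arrays, and a probe set had to reach it on at least 2 arrays. It kept 20 of the 34 members, 18 of them on all 4 arrays. No member passed through the arrays of 1 genotype alone. The 14 others reached the filter on at most 1 array, and their values are given as descriptions.

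**Figure D1:**
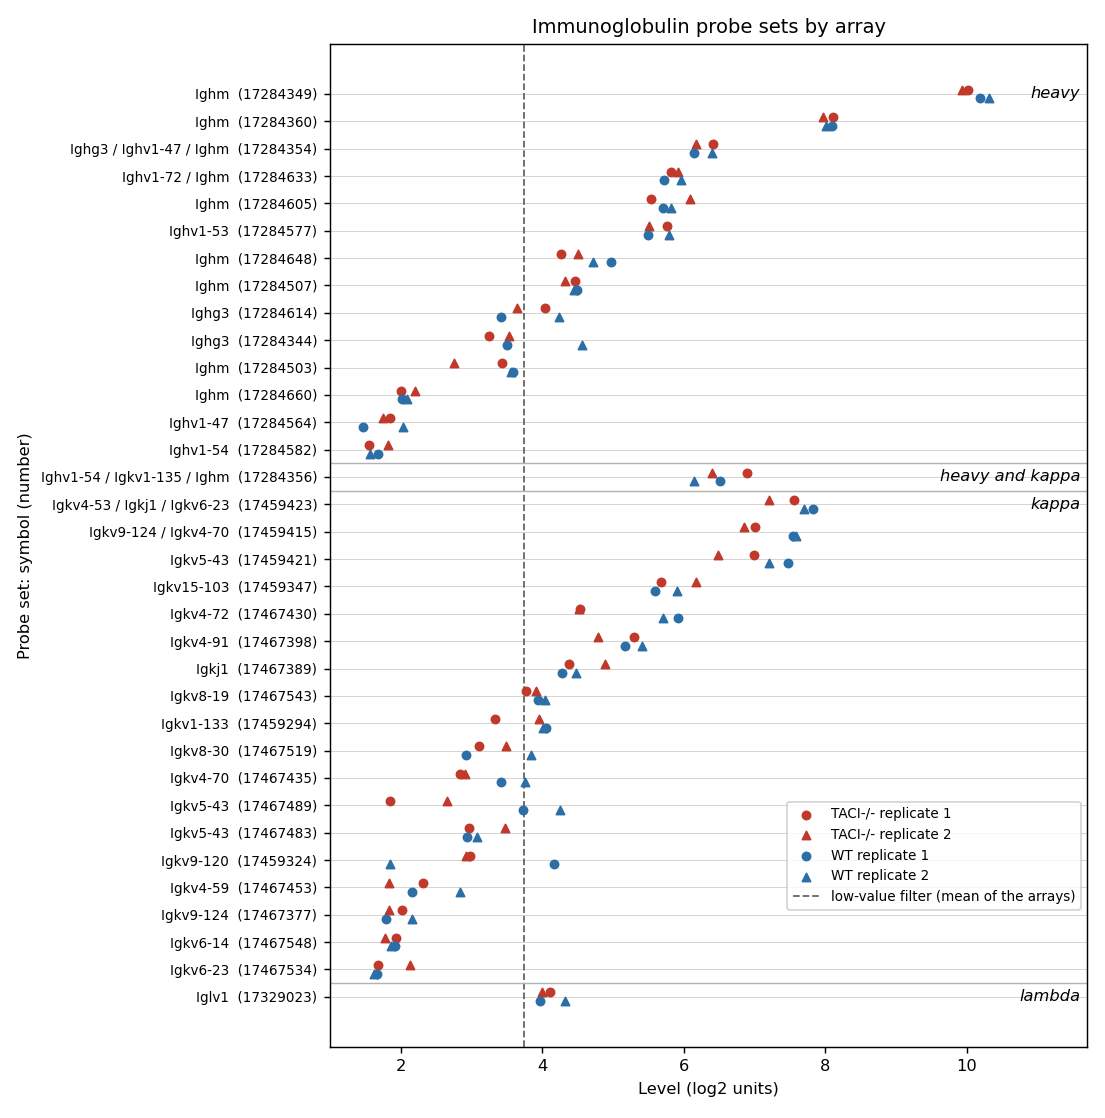
Level (log2 units, horizontal axis) of each of the 34 immunoglobulin probe sets on each array, grouped by chain and ordered by mean level; red is TACI-/-, blue is WT, circles are replicate 1 and triangles replicate 2. The dashed line is the mean of the 4 filter values; the points of the topmost Ighm probe set lie between 9.92 and 10.31, and the red points of Igkv4-72, which nearly coincide, lie left of both blue points.

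The mu constant region gave signals among the highest percentiles of the array in both genotypes. Ighm probe set 17284349 was at 10.01 and 9.92 log2 units in TACI-/- cells, against 10.19 and 10.31 in WT cells, at percentiles from 99.2 to 99.4. Both TACI-/- arrays were below both WT arrays. Its log2 fold change was -0.28 ± 0.14 (SE), with a 95% interval from -0.61 to 0.047, and it did not pass (limma adjusted p = 0.654). Ighm probe set 17284360 was at 8.11 and 7.97 in TACI-/- cells, against 8.10 and 8.002 in WT cells. The genotypes overlapped there, with a log2 fold change of -0.0082 and an interval from -0.34 to 0.33.

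The 7 probe sets that carried Ighm alone did not share 1 level, and spanned 2.00 to 10.31 log2 units. By number, 5 of the 7 came after a probe set of the heavy chain V segment Igh-VS107, and so stood among probe sets of V segments. Of these 5, probe set 17284648 was at 4.26 and 4.50 in TACI-/- cells, against 4.97 and 4.72 in WT cells. The genotypes did not overlap, and the log2 fold change was -0.46 ± 0.16 (SE; limma unadjusted p = 0.0278, adjusted p = 0.569), which did not pass. Probe set 17284605 had a log2 fold change of 0.043, with 5.54 and 6.08 in TACI-/- cells, against 5.70 and 5.82 in WT cells. Probe set 17284507 had a log2 fold change of -0.077. The 2 remaining Ighm probe sets, 17284503 and 17284660, were below the filter on all 4 arrays. Probe set 17284503 was at 3.43 and 2.75 in TACI-/- cells, against 3.59 and 3.55 in WT cells, without overlap. Its difference was -0.48, and that of 17284660 was 0.046.

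Ighg3, the constant region of IgG3, stayed near the filter. Probe set 17284614 was at 4.04 and 3.65 in TACI-/- cells, against 3.42 and 4.23 in WT cells, so each genotype had 1 array on either side of the filter. Probe set 17284344 was at 3.25 and 3.53 in TACI-/- cells, against 3.50 and 4.56 in WT cells, where WT replicate 2 alone was above the filter. Neither shows a difference beyond the spread between replicates.

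Heavy chain V segments carried by a probe set alone were Ighv1-53, Ighv1-47 and Ighv1-54. Ighv1-53 was at 5.76 and 5.51 in TACI-/- cells, against 5.49 and 5.79 in WT cells, with a log2 fold change of -0.0077 and a 95% interval from -0.42 to 0.40. Ighv1-47 and Ighv1-54 lay between 1.47 and 2.03 log2 units on all 4 arrays, below the filter. Heavy chain V segments that shared a probe set with Ighm overlapped between the genotypes as well. The probe set of Ighg3, Ighv1-47 and Ighm had a log2 fold change of 0.022, and that of Ighv1-72 and Ighm had 0.029. The probe set of Ighv1-54, Igkv1-135 and Ighm, which crosses the heavy and kappa loci, was at 6.89 and 6.39 in TACI-/- cells, against 6.51 and 6.15 in WT cells, with a log2 fold change of 0.31 and an interval from -0.21 to 0.84.

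The kappa members had the 3 lowest p of all members. Igkv4-72, a V segment of kappa family 4, was at 4.53 and 4.51 log2 units in TACI-/- cells, against 5.91 and 5.71 in WT cells. Its mean was 4.52 ± 0.01 in TACI-/- cells and 5.81 ± 0.15 in WT cells (SD, n = 2 each), a difference larger than the spread between replicates. The log2 fold change was -1.29 ± 0.14 (SE), or 2.45-fold lower in TACI-/- cells, with a 95% interval from -1.63 to -0.95. Adjusted over the 15966 probe sets of the fit it did not pass (limma unadjusted p = 8e-05, adjusted p = 0.0674). With 1 probe set per gene, which leaves 13782 tests, the adjusted p was 0.0404, and with a trended, robust variance 0.0459, so its call depends on which probe sets are tested and on the variance model.

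The probe set of Igkv9-124 and Igkv4-70 was at 7.004 and 6.85 log2 units in TACI-/- cells, against 7.54 and 7.59 in WT cells. Its log2 fold change was -0.64 ± 0.14 (SE; limma unadjusted p = 0.00309, adjusted p = 0.327). Igkv5-43 probe set 17459421 was at 6.99 and 6.48 in TACI-/- cells, against 7.47 and 7.20 in WT cells. Both TACI-/- arrays lay below both WT arrays for each of these probe sets, and neither passed; the log2 fold change of the Igkv5-43 probe set was -0.60 ± 0.21 (SE; limma unadjusted p = 0.0269, adjusted p = 0.569). The probe set of Igkv4-53, Igkj1 and Igkv6-23 was at 7.56 and 7.20 in TACI-/- cells, against 7.83 and 7.70 in WT cells, with a log2 fold change of -0.39 and an interval from -0.79 to 0.020.

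The 5 other kappa members in the fit had 95% intervals that include 0. Igkv1-133 was at 3.33 and 3.95 in TACI-/- cells, against 4.06 and 4.01 in WT cells, and did not reach the filter on TACI-/- replicate 1 (log2 fold change -0.39). Igkv4-91 had a log2 fold change of -0.24, and Igkv8-19 had -0.15. Igkv15-103 and Igkj1, the only J segment among the members, had positive values, 0.18 and 0.26. The probe set with Igkj1 alone was at 4.38 and 4.89 in TACI-/- cells, against 4.27 and 4.48 in WT cells, so the 2 probe sets with this symbol differed in sign. By number it stood between those of Igkv9-124 and Igkv4-91, among V segments.

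Below the filter, 2 kappa probe sets repeated a symbol of the bright ones and had both TACI-/- arrays below both WT arrays. Igkv5-43 probe set 17467489 was at 1.85 and 2.66 log2 units in TACI-/- cells, against 3.73 and 4.25 in WT cells, a difference of -1.74. Igkv4-70 alone was at 2.84 and 2.91 in TACI-/- cells, against 3.42 and 3.75 in WT cells, a difference of -0.71. For both, WT replicate 2 was the 1 array above the filter, so the sizes are not given as folds. In a limma fit with no filter, over 25335 probe sets, their adjusted p were 0.34 and 0.523. Probe sets of the same symbols did not all move alike: the third Igkv5-43 probe set, 17467483, had a difference of 0.22, and Igkv9-124 alone had -0.051, with all their arrays below the filter. Igkv6-23 alone, also below the filter on every array, was at 1.67 and 2.13 in TACI-/- cells, against 1.66 and 1.62 in WT cells. There both TACI-/- arrays lay above both WT arrays, with a difference of 0.26, while the bright probe set with this symbol was lower. Igkv9-120 was at 2.98 and 2.92 in TACI-/- cells, against 4.16 and 1.84 in WT cells, the widest gap between replicates of any member.

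The lambda locus had 1 member, Iglv1, a V segment. It was at 4.12 and 3.99 log2 units in TACI-/- cells, against 3.97 and 4.32 in WT cells. The TACI-/- values lay within the WT values, and the log2 fold change was -0.092, with a 95% interval from -0.49 to 0.31.

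**Figure D2:**
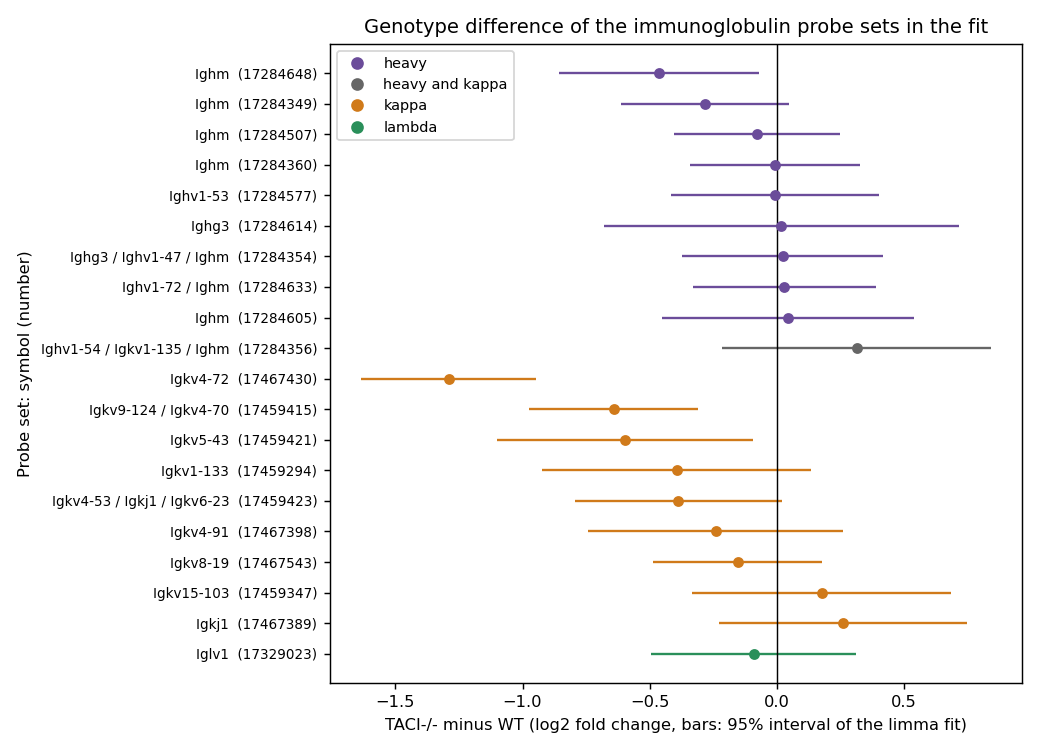
Log2 fold change, TACI-/- minus WT (horizontal axis), of the 20 immunoglobulin probe sets in the limma fit, coloured by chain, with 95% intervals from the moderated standard error. Igkv4-72 lies at -1.29, with the Igkv9-124 and Igkv4-70 probe set at -0.64 next; most heavy chain members lie near 0.

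Counted over the fit, 0 of the 20 members had a Benjamini-Hochberg adjusted p under 0.05 in limma, where 0.0877% of all probe sets passed, 10 higher and 4 lower in TACI-/- cells. At an unadjusted p under 0.05, 4 members were lower and 0 higher, against 3.86% and 4.3% of all probe sets. At an unadjusted p under 0.05 and at least 1.5-fold, 3 members (15%) were lower and 0 higher, against 1.14% and 1.39% of all probe sets; the 3 are the kappa probe sets of Igkv4-72, of Igkv9-124 with Igkv4-70, and of Igkv5-43. Without TACI-/- replicate 2 the count was again 3, of which 1 was shared: Igkv4-72 remained at -1.28, the Igkv9-124 and Igkv4-70 probe set was at -0.56 and Igkv5-43 at -0.35, both under 1.5-fold, and Igkv1-133 at -0.70 and Ighm probe set 17284648 at -0.59 met the criterion in their place. Without WT replicate 1 the Igkv5-43 probe set did not meet it either. With no filter 5 were lower and 0 higher, against 0.928% and 1.2%, and in a fit that also took probe sets without a symbol 3 were lower and 0 higher, against 2.56% and 2.38%. Arrays of the genotypes did not overlap, with TACI-/- lower, for 8 of the 20 members (40%), against 18.6% of all probe sets, and with TACI-/- higher for 0, against 19.6%. The 8 were 2 heavy chain and 6 kappa members. Members of a family share sequence, so these counts are not over independent genes.

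Medians were taken for each chain. Over all 18 kappa members the median log2 difference was -0.20, with 14 negative and 4 positive, and over the 9 in the fit it was -0.39, with 7 negative. Over all 14 heavy chain members it was 0.0047, with 7 negative and 7 positive, and over the 9 in the fit -0.0077, with 5 negative. The median over all 25335 probe sets with a symbol was 0.0088. Whether kappa and heavy chain members differ was not tested, since members are not replicates. With 2 arrays against 2, an exact two-sided permutation test of a single value cannot go below p = 0.333.

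The numbers of the probe sets follow the loci. Among V segments carried alone, neighbours in number were in gene order in 2 of 2 heavy chain pairs and in 3 of 3 and 9 of 9 kappa pairs, the kappa probe sets lying in 2 separate runs of numbers. The first run holds 6 members and ends with the 3 probe sets of Igkv9-124 with Igkv4-70, Igkv5-43, and Igkv4-53 with Igkj1 and Igkv6-23, whose log2 fold changes were -0.64, -0.60 and -0.39. The second run holds 12 members, including Igkv4-72 at place 20 of its probe sets and the Igkv5-43 probe set 17467489 at place 42.

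**Figure D3:**
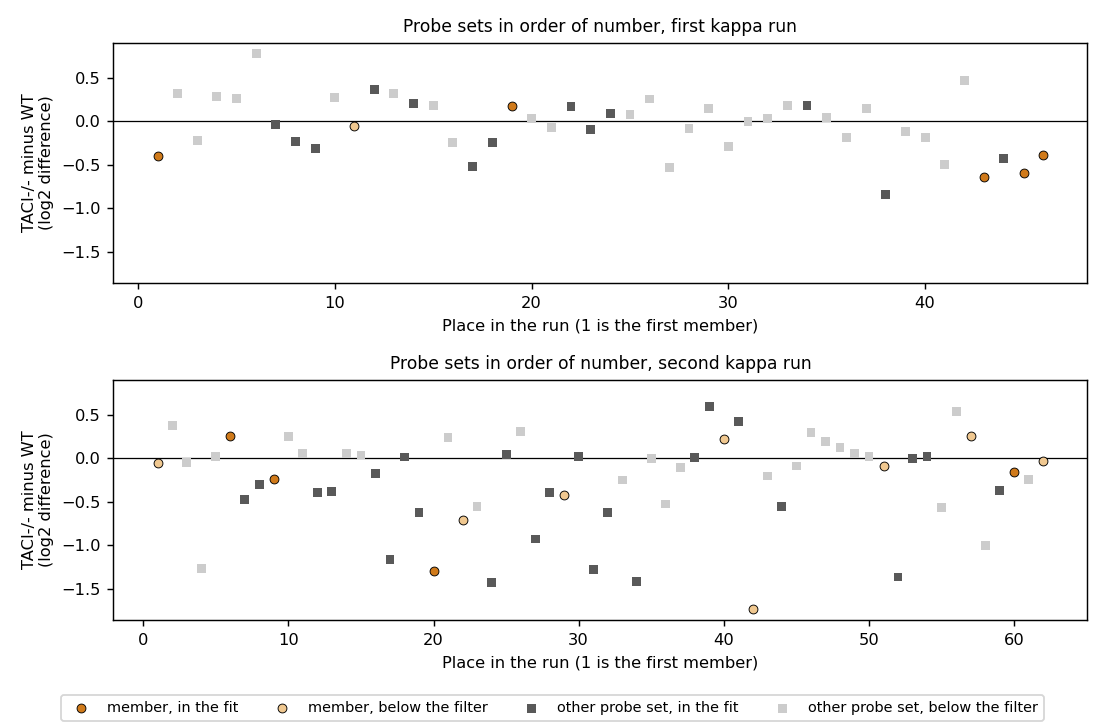
Difference TACI-/- minus WT (log2 units, vertical axis) of every probe set in the first and the second kappa run, by place in the order of numbers; circles are immunoglobulin members, squares are probe sets with another symbol or none, and pale symbols are below the filter. In the second run, points below -1 lie among places 4 to 58 and include Igkv4-72 at -1.29 and Igkv5-43 at -1.74.

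Genes that work with immunoglobulin were measured beside the members, each by its highest probe set with 1 symbol. B cell receptor partners, which carry or tune the signal of surface immunoglobulin, had 12 of 15 genes measured and 7 in the fit, of which 0 passed in either direction and 7 had positive log2 fold changes, with a median of 0.29. Cd79a, a signalling chain of the B cell receptor, was at 5.09 and 5.09 log2 units in TACI-/- cells, against 4.63 and 4.96 in WT cells. Its partner Cd79b was at 4.55 and 4.09 in TACI-/- cells, against 3.79 and 4.15 in WT cells. Bank1, a B cell scaffold protein, had 0.44 and Cd81, a tetraspanin, 0.29.

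Other B cell markers had 19 of 20 genes measured and 13 in the fit, of which 0 passed. Ly86 was at 4.33 and 3.91 in TACI-/- cells, against 3.22 and 3.51 in WT cells, so it reached the filter on the TACI-/- arrays alone. Over the 12 others, 9 had positive values and the median was 0.25. Cxcr5, a receptor for follicle homing that T cells can also carry, had a log2 fold change of 0.81, the MHC class II gene H2-Aa 0.57 and Fcmr, a receptor for IgM, 0.49 (limma adjusted p 0.375 to 0.542). Ms4a1 (CD20) and Blk were below the filter on all 4 arrays, Ms4a1 at 3.62 and 3.28 in TACI-/- cells, against 3.37 and 3.36 in WT cells. The log2 values of all 19 measured markers, with Ly86 and genes below the filter included, summed to 96.7 and 92.0 in TACI-/- cells, against 88.3 and 89.4 in WT cells. Those of the 12 receptor partners, again with genes below the filter, summed to 52.9 and 50.9 in TACI-/- cells, against 49.3 and 50.7 in WT cells. B cell markers had mostly positive values where kappa members had mostly negative ones, and their part in the immunoglobulin values was not tested.

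Plasma cells secrete antibody. Of 16 plasma cell and secretion genes, 12 were in the fit and 1 passed, Irf4, a transcription factor that activated T cells also use, at 5.70 and 5.82 in TACI-/- cells, against 4.13 and 4.16 in WT cells (limma adjusted p = 0.0403). Fkbp11 reached the filter on the TACI-/- arrays alone, and the median over the 11 others was 0.021. Jchain, which joins IgM and IgA into polymers, was below the filter on all 4 arrays, at 2.57 and 3.002 in TACI-/- cells, against 2.74 and 2.57 in WT cells. Tnfrsf17, the BCMA receptor, was below it too, and Mzb1, a chaperone of IgM assembly, had a log2 fold change of 0.00575.

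Recombination and surrogate light chain genes had 13 of 16 measured and 9 in the fit, of which 0 passed. Rag2, of the recombinase, did not reach the filter on either WT array, and the median over the 8 others was -0.10. Vpreb2, a part of the surrogate light chain of pre-B cells, was at 3.92 and 3.50 in TACI-/- cells, against 4.39 and 4.07 in WT cells (log2 fold change -0.52). Octamer-binding and B lineage factors, some of which act on the promoters of V segments, had 11 of 12 measured and 10 in the fit, of which 0 passed, 9 had positive values and the median was 0.21. Pou2f2 (OCT2) had 0.48 and Pax5, a B lineage factor, 0.28.

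**Figure D4:**
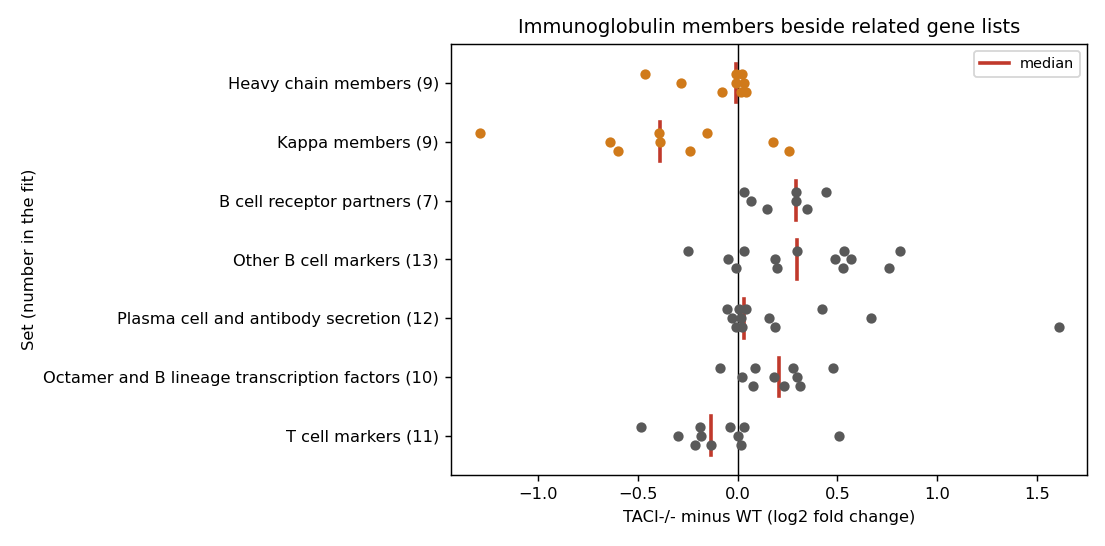
Log2 fold change, TACI-/- minus WT (horizontal axis), of heavy chain and kappa members in the fit and of the genes of 5 related lists, 1 point per probe set or gene, with the median as a red bar. The median of the kappa members was -0.39 and that of the B cell receptor partners 0.29. The points include Ly86 and Fkbp11, which reached the filter on the TACI-/- arrays alone.

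The sorted cell type was checked with T cell markers. Cd3e and Cd4 were at percentiles from 99.4 to 99.8 on all 4 arrays, and all 11 measured markers of 14 were in the fit, with 0 passing and a median of -0.13. The CD8 and NK markers had 0 of 5 genes in the fit past the threshold, 3 positive and 2 negative, with a median of 0.076. These were Eomes at 0.79, Nkg7 at 0.17, Prf1 at 0.076, Cd8b1 at -0.65 and Klrd1 at -0.87. The myeloid markers had 0 of 5 past it, 3 positive and 2 negative, with a median of 0.044, and ran as far as 0.71 for Cd68 and -0.49 for Lyz2. Tnfrsf13b was below the filter in both genotypes, at 2.73 and 3.09 in TACI-/- cells, against 2.95 and 3.02 in WT cells, so it does not check the genotype labels.

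T cell receptor segments, the antigen receptor segments of the sorted cells themselves, were the most alike set. Of their 22 probe sets, 20 were in the fit, 2 of which repeated the values of another on all 4 arrays. Of the 18 with distinct values, 5 were lower at an unadjusted p under 0.05 and 1.5-fold, against 1.14% of all probe sets. The 1 that passed the adjusted threshold, against 0.0877% of all probe sets, was a probe set of Trav14d-3-dv8, at 3.49 and 3.66 log2 units in TACI-/- cells, against 7.49 and 7.38 in WT cells (limma adjusted p = 0.00162). It reached the filter on the WT arrays alone, and without it 4 were lower and 0 past the adjusted threshold. The median log2 fold change over the distinct probe sets other than this one was -0.40, beside -0.39 for the kappa and -0.0077 for the heavy chain members. The difference between the immunoglobulin and T cell receptor segments was not tested.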

How the data were processed

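Naive CD4+ T cells of 2 genotypes were measured on 4 Affymetrix arrays. The deposited table held log2 values per probe set, normalized by the authors; per the submitters' processing notes, RMA and Partek were used, with neither role nor version stated, and base 2 was inferred from RMA and the range of values. Symbols came from the platform annotation. The array table gives no build, so RefSeq (GRCm38.p6) served only for names, chromosomes and gene order. The file gives no slide or scan date, so batches could not be tested.

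Each probe set was tested for genotype (two-sided, no other term) by lmFit and eBayes of limma 3.58.1 (R 4.3.3) over 15966 probe sets with at least 1 symbol past the filter, and called at a Benjamini-Hochberg adjusted p under 0.05. The prior had 4.21 degrees of freedom. Fold changes are TACI-/- minus WT. The fit was tested on simulated data. Replicate numbers are shared only as numbers (correlation of deviations -0.09), so no block was used. Constant regions, members of lowest p and brightest members were named by rule; other members were named with their values in view. The members and lists were chosen with earlier results of these data known. Alternatives were other filters, scalings, probe set choices and variance models, a replicate block, and leaving out each array. No sequence of these segments was used here.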

Additional observations from a re-analysis of the deposited data

How the results depend on the processing

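Immunoglobulin probe sets past adjusted p 0.05 (limma) numbered 0 with all alternatives except 1 probe set per gene symbol and the trended, robust variance, with 1 each, Igkv4-72. Its adjusted p was 0.0404 and 0.0459 there, and lay from 0.0568 to 0.748 in the others (0.192 with the replicate block). All probe sets past it numbered 14, against 4 with no low-value filter, 5 with probe sets without a symbol added, 28 with the trended, robust variance, 0 without moderation, 4 with the replicate block and 0 to 1 without 1 array. Members lower at the looser criterion numbered 3, and 5 with no filter, which admits 2 dim probe sets. The count was 2 with quantile normalization again and 2 without moderation, where Igkv5-43 probe set 17459421 did not meet the criterion. With 1 probe set per gene symbol, which tests 11 members, it was 2 as well. Without 1 array, the members that met the criterion were not all the same. The heavy chain median of 0.0047 moved to between -0.13 and 0.044 without 1 array, with values of -0.11 without TACI-/- replicate 1 and -0.13 without WT replicate 1; the kappa median stayed negative, from -0.34 to -0.11, and the lambda value lay from -0.27 to 0.082.

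Signs changed for 9 of 20 members, all with intervals that include 0. For Ighm probe set 17284360 the log2 fold change was 0.020 with quantile normalization again and -0.080 to 0.063 without 1 array. Without 1 array it also ranged from -0.11 to 0.15 (Ighg3, Ighv1-47 and Ighm), -0.39 to 0.43 (Ighg3 probe set 17284614), -0.23 to 0.32 (Ighm probe set 17284605), -0.16 to 0.14 (Ighv1-53), -0.089 to 0.15 (Ighv1-72 and Ighm), -0.070 to 0.42 (Igkv15-103), -0.50 to 0.017 (Igkv4-91) and -0.27 to 0.082 (Iglv1). The cause was not tested. With 1 array left out, the lone array of its genotype is assumed to vary like the other genotype. Signals near the filter limit what the 14 dim members can show.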

Other observations

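Probe sets with no symbol stand between the members in the order of numbers. They are unnamed here, and their values were examined after those of the members. The second kappa run, from Igkv9-124 to Igkv6-14, holds 49 of them, of which 23 passed the filter in limma with 25039 probe sets, symbol or not. In that fit 7 of the 23 (30.4%) were at least 1.5-fold lower in TACI-/- cells at an unadjusted p under 0.05 and 1 was higher, against 5.43% and 4.3% of the 9073 tested probe sets with no symbol. Of the 7, probe set 17467522 reached the filter on the WT arrays alone, so the count through both genotypes was 6. None of the 7 passed adjusted p 0.05 (limma, lowest adjusted p = 0.192). The unnamed probe set 17467441, near Igkv4-70 in number, was at 4.29 and 4.16 log2 units in TACI-/- cells, against 5.54 and 5.77 in WT cells. The probe set 17467421, before Igkv4-72, was at 3.93 and 4.13 in TACI-/- cells, against 5.28 and 5.11 in WT cells.

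In the first kappa run, 0 of 13 tested probe sets with no symbol met that criterion in either direction. In the heavy chain run, 2 of 41 were lower, 1 of them past the filter on the arrays of 1 genotype alone, and 1 was higher. Whether the runs differ was not tested.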
